A study of Homo sapiens with 12 samples.

Results

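The genes described here were 10 members of the BCL2 family, taken by gene symbol from the 20771 genes of the count table and read in all 12 libraries. They were 5 BH3-only genes (BBC3, PMAIP1, BCL2L11, HRK and BMF), 3 survival genes (MCL1, BCL2 and BCL2L1) and 2 effector genes (BAX and BAK1). RNA was sequenced from the Ewing sarcoma derivatives EW8-RRM1-KO and TC71-RRM1-KO, which are cells of the lines EW8 and TC71 with CRISPR/Cas9 knockout of endogenous RRM1, the large subunit of ribonucleotide reductase, and a codon-optimized RRM1 transgene that is expressed only with doxycycline. In each line, 3 libraries labelled 0 h came from cells kept in doxycycline and 3 labelled 48 h came from cells without it for 48 h. The knockout, the Cas9 and guide construct and the transgene were present in all 4 groups, so the 0 h cells were not parental cells. The knockout lines had been derived by single-cell cloning, and each cell line is therefore represented by a clonal derivative.

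The BCL2 family decides whether the outer mitochondrial membrane is breached during apoptosis. The effectors BAX and BAK form pores in that membrane, the survival proteins MCL1, BCL2 and BCL-XL hold effectors and BH3-only proteins in check, and the BH3-only proteins act as stress sensors that block survival proteins or activate effectors directly. Much of this control is exerted on the proteins, through binding, phosphorylation and degradation, and none of it is measured by mRNA counts.

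The libraries held 18468485 to 35698991 counts (median, 24255852.5). RRM1 itself had 166 to 317 counts in EW8 at 0 h and 1201 to 1514 at 48 h, and 316 to 422 and 674 to 778 in TC71, a rise of 2.88 (SE 0.07, adjusted p = 3.37e-27) and 0.65 (SE 0.07, adjusted p = 2.91e-09) on the log2 scale. How reads of the codon-optimized transgene were mapped is not stated, so the RRM1 counts do not check the time labels, and 0 h and 48 h stand for libraries so labelled. All 8 Ewing sarcoma marker genes looked for were in the table, with summed levels of 1679 to 1705 CPM (counts per 1000000 counts of TMM-scaled library size) in EW8 at 0 h and 1493 to 1525 at 48 h. In TC71 they summed to 1623 to 1643 CPM at 0 h and 1539 to 1568 at 48 h, so the sum was lower at 48 h without overlap in both lines. The 8 did not move together, with 3 higher and 4 lower in EW8 at an adjusted p below 0.05, and 4 higher and 3 lower in TC71. Of 10 markers of leukocytes, epithelium, endothelium, muscle and melanocytes, 4 were in the table and 6 (CD3E, KRT5, PECAM1, VWF, MYOD1 and DES) were not listed. The 4 summed to 1.46 to 2.19 CPM in EW8 at 0 h and 3.78 to 3.96 at 48 h, and to 3.02 to 3.72 and 5.13 to 5.93 CPM in TC71, and the part of either marker sum in the results was not tested. These are bulk measurements, so a change in every cell and a larger change in some of the cells cannot be told apart.

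Promoter sequences of 300 bases (250 before and 50 after the start of transcription) were available from RefSeq, build GRCh38.p14, for 9 of the 10 members. MCL1 had no window and was not searched. They were searched on both strands for the AP-1 motif (TGAGTCA or TGACTCA), the CRE (TGACGTCA), a C/EBP-ATF composite (TGATGCAA), a FOXO motif (GTAAACA), the E-box CACGTG and E2F motifs (TTTCGCGC or TTTGGCGC), because AP-1, ATF, FOXO and E2F factors are known regulators of BH3-only genes and MYC binds the E-box. An AP-1 match cannot also be a CRE match, since the CRE has an additional base in its centre. A match is a description of the letters and not evidence of binding. The BBC3, BCL2L11 and BAX windows are shown because they held a match to one of these motifs and because the 3 genes changed in EW8 in different directions. Motifs are in capitals, and each line reads 5′ to 3′ on the gene's own strand.
BBC3, chr19:47232618-47232917, − strand: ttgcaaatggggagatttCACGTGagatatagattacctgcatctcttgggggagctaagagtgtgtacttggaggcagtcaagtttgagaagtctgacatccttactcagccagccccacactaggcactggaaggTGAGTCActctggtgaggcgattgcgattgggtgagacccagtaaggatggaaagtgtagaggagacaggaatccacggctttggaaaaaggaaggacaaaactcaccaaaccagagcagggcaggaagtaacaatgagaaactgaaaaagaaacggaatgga
BCL2L11, chr2:111120664-111120963, + strand: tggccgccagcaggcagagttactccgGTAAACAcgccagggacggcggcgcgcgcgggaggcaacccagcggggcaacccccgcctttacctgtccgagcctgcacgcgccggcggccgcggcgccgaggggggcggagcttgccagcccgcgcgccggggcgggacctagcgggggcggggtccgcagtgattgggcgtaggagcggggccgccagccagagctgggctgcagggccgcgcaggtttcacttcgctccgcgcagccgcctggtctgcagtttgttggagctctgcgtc
BAX, chr19:48954625-48954924, + strand: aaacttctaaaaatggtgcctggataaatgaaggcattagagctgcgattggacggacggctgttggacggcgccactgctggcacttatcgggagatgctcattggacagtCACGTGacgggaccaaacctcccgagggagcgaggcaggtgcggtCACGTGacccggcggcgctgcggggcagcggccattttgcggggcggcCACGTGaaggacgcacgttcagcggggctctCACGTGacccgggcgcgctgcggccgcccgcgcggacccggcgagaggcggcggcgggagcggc

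The BBC3 window held an E-box at positions -232 to -227 and an AP-1 motif at -113 to -107, counted from the start of transcription. The BCL2L11 window held the FOXO motif at -223 to -217. The BAX window held 4 E-boxes, at -138 to -133, -93 to -88, -45 to -40 and -14 to -9. Over 34943 promoter windows of this length, the AP-1 motif was present in 4.96%, the FOXO motif in 3.42% and the E-box in 7.23%, and 4 or more E-boxes were found in 5 windows (0.0143%). The CRE (1.84% of windows), the C/EBP-ATF composite (0.870%) and the E2F motifs (1.14%) matched none of the 9 members searched, which leave out MCL1. PMAIP1, HRK, BMF, BCL2, BCL2L1 and BAK1 held none of these letters in their windows. The GC content was 48.0% for BBC3, 74.7% for BCL2L11 and 67.3% for BAX, against a median of 58.7% over the 35116 windows of the whole table.

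Removal of doxycycline was followed by higher BBC3, PMAIP1, BCL2L11 and MCL1 mRNA in both lines, and these 4 changes were larger in EW8. BCL2L1 was also slightly higher in both lines. In that line, 5 of the 10 members (BBC3, PMAIP1, BCL2L11, HRK and MCL1) were upregulated, which required more than a 2-fold change at an adjusted p below 0.05, and none was downregulated by the same thresholds. Among all 16515 genes tested in EW8, 13.9% were upregulated and 3.35% downregulated. By adjusted p alone, 7 members rose and 2 (BCL2 and BAX) fell in EW8, against 37.0% and 31.6% of all genes. The 2 that fell were also called by DESeq2, and no further member was lower at an unadjusted p below 0.05. Of the 7 rises, 2 (BCL2L1 and BAK1) were not called by DESeq2. In TC71, 1 member (BBC3) was upregulated and none was downregulated, against 3.26% and 0.854% of all genes. By adjusted p alone, 7 members rose in TC71 and none fell by edgeR, by DESeq2 or at an unadjusted p below 0.05, against 22.9% and 19.2% of all genes. HRK passed the filter on low counts only through its EW8 48 h libraries, and without it 4 of 9 members were upregulated in EW8. The median log2 fold change of the members was 0.62 in EW8 and 0.48 in TC71 (0.14 and 0.34 without HRK), against 0.03 and 0.00 over all genes. The p-values measure the spread between these libraries, which may be technical, since no source says that replicates were separate cultures.

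**Figure D1:**
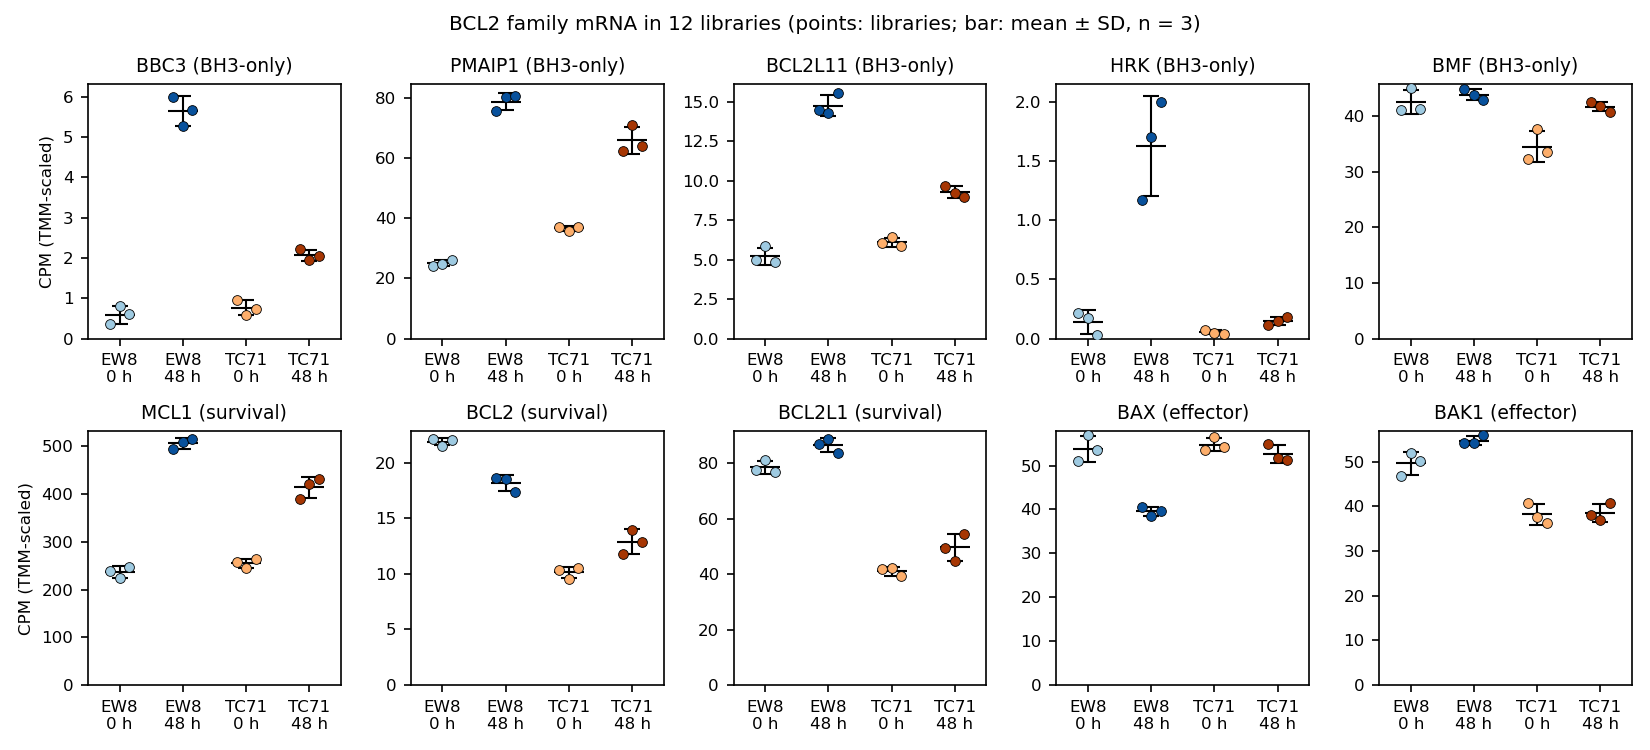
Level of each member in CPM (vertical axis of each panel, starting at 0) in the 12 libraries, with points for libraries and bars for the mean ± SD of 3. The 48 h points of BBC3, PMAIP1, BCL2L11, HRK, MCL1 and BCL2L1 lie above all 0 h points of the same line in both EW8 and TC71. HRK in TC71 rests on a few counts. BAX is lower at 48 h without overlap in EW8 alone.

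Of the 5 BH3-only genes, 4 rose in EW8 (37.0% of all genes) and all 4 were upregulated (13.9%), with a median log2 fold change of 1.65. In TC71, 4 of the 5 rose (22.9% of all genes) and 1 was upregulated (3.26%), with a median of 0.84. The medians of the 3 survival genes were 0.14 and 0.34, and those of the 2 effector genes -0.15 and -0.02, and the classes were not tested against each other. Without HRK, 3 of 4 were upregulated in EW8 and 1 of 4 in TC71, with medians of 1.58 and 0.73.

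BBC3 (ENSG00000105327, chr19:47220822-47232766, − strand, hg38) encodes PUMA, a BH3-only protein that binds all the main survival proteins. The EW8 libraries had 8, 14 and 20 BBC3 counts at 0 h, which became 113, 105 and 116 at 48 h. The TC71 libraries went from 26, 12 and 18 counts to 58, 52 and 66. The groups did not overlap in either line, and BBC3 began at a similar low level in both. Mean BBC3 levels were 0.588 ± 0.227 (SD, n = 3) and 5.65 ± 0.373 CPM in EW8, and 0.767 ± 0.191 and 2.06 ± 0.139 CPM in TC71. The log2 fold change was 3.28 (SE 0.20, adjusted p = 4.3e-16) in EW8 and 1.39 (SE 0.22, adjusted p = 3.93e-06) in TC71. BBC3 was the one member upregulated in both lines. Because the 0 h counts were low, the ratio of depth-scaled counts was also computed directly, and it was 9.82 (exact 95% interval, 7.11 to 13.9) in EW8 and 2.63 (1.94 to 3.62) in TC71. These intervals cover counting error only. Exons of the microRNA genes MIR3190 and MIR3191 lie within BBC3 exons, and neither is a row of the table.

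PMAIP1 (ENSG00000141682, chr18:59899996-59904305, + strand) encodes NOXA, a BH3-only protein that binds MCL1 preferentially and hastens its degradation. Its level was 24.2, 24.9 and 26.2 CPM in EW8 at 0 h and 75.6, 80.4 and 80.6 at 48 h. In TC71 the level was 37.0, 35.7 and 37.3 CPM at 0 h and 62.6, 71.2 and 64.0 at 48 h. No group overlapped another, and the order of the lines turned around, with TC71 above EW8 at 0 h and below it at 48 h. The change was 3.13-fold in EW8 (log2, 1.65; SE 0.06; adjusted p = 6.54e-23) and 1.80-fold in TC71 (log2, 0.85; SE 0.05; adjusted p = 1.7e-14). PMAIP1 was the most abundant BH3-only transcript per length in the 4 groups, at 11.5 to 36.1 CPM per kilobase of exon.

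BCL2L11 (ENSG00000153094, chr2:111119378-111168444, + strand) encodes BIM, which binds all the main survival proteins, can activate BAX and BAK directly, and is a known FOXO and JUN target. The 3 EW8 libraries at 0 h were at 4.95, 5.84 and 4.88 CPM and those at 48 h at 14.5, 14.3 and 15.6. The TC71 libraries were at 6.03, 6.42 and 5.83 CPM at 0 h and at 9.70, 9.21 and 8.97 at 48 h. BCL2L11 thus rose without overlap in both lines, from ranges at 0 h that overlapped between the lines. The change was 2.86-fold in EW8 (log2, 1.52; SE 0.10; adjusted p = 1.13e-15) and 1.52-fold in TC71 (log2, 0.61; SE 0.10; adjusted p = 4.47e-06). In the GENCODE models, 727 bases of BCL2L11 exon overlap exons of the noncoding gene MIR4435-2HG on the opposite strand. MIR4435-2HG moved in the same direction, from 587 to 1629 counts over the 3 libraries of a group in EW8 and from 499 to 1054 in TC71 (log2 fold changes 1.78 and 0.82, adjusted p = 1.09e-18 and 1.78e-08). The library kit keeps strand but the strand setting of the counting is not stated, so the share of overlapping reads counted for either gene is unknown.

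HRK (ENSG00000135116, chr12:116856144-116881441, − strand) encodes Harakiri, a BH3-only protein best known from neurons, where it is a target of JNK and c-Jun signalling. It was the rarest member, with 5, 3 and 1 counts in the EW8 libraries at 0 h, which became 22, 34 and 41 at 48 h. The TC71 libraries went from 2, 1 and 1 counts to 3, 4 and 6. HRK could therefore be measured above a few counts only in EW8 at 48 h. Since these libraries alone carried it past the filter on low counts, a gene with its 0 h counts entered the test only if it was high at 48 h, and its p-value is read with that limit. The fitted log2 fold change in EW8 was 3.67 (SE 0.40, adjusted p = 7.31e-10), and the direct ratio of depth-scaled counts was 13.3 (exact 95% interval, 6.73 to 29.97) from 9 and 97 counts. The EW8 estimate fell to 2.98 without EW8 0 h replicate 3, the library with 1 count. It rose to 4.23 without EW8 0 h replicate 1, the library with 5 counts, and the call was kept in both fits. In TC71 the log2 fold change was 1.36 (SE 0.76, adjusted p = 0.154), and the ratio of 2.72 from 4 and 13 counts had an interval of 0.840 to 11.4. A change of HRK in TC71 was not detected, with few counts and a wide interval.

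BMF (ENSG00000104081, chr15:40087890-40108892, − strand) encodes a BH3-only protein held at the actin cytoskeleton through myosin V motors until stress releases it. BMF was at 41.2, 45.0 and 41.3 CPM in EW8 at 0 h and 44.9, 43.8 and 42.9 at 48 h, so the groups overlapped. In TC71 it went from 32.3, 37.7 and 33.6 CPM to 42.6, 41.7 and 40.8, without overlap. The log2 fold change was 0.05 (95% interval, -0.07 to 0.17; adjusted p = 0.459) in EW8 and 0.28 (SE 0.06, adjusted p = 0.000219) in TC71, a 1.21-fold rise. BMF was the BH3-only gene that rose in TC71 and did not pass the test in EW8. The EW8 value turned to -0.007 and -0.004 without EW8 0 h replicate 1 or 3, and scaling by library totals alone gave 0.18 (adjusted p = 0.00972). The antisense gene BMF-AS1 shares 461 exon bases with BMF and is not a row of the table.

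MCL1 (ENSG00000143384, chr1:150560895-150579738, − strand) encodes the short-lived survival protein that is the main target of NOXA. Per length of merged exon it was the most abundant member in each group (38.1 to 81.4 CPM per kilobase), although with the canonical transcript length BAX exceeded it at 0 h (67.7 against 60.0 CPM per kilobase in EW8 and 68.9 against 64.7 in TC71). MCL1 was at 239, 224 and 248 CPM in EW8 at 0 h and 494, 509 and 516 at 48 h. In TC71 it was at 258, 245 and 263 CPM at 0 h and 389, 422 and 432 at 48 h. The 48 h libraries lay above the 0 h libraries in both lines without overlap. The change was 2.13-fold in EW8 (log2, 1.09; SE 0.04; adjusted p = 1.17e-21) and 1.62-fold in TC71 (log2, 0.70; SE 0.04; adjusted p = 2.98e-15). MCL1 was the survival gene with the largest rise in each line. Its exons overlap those of ADAMTSL4 by 43 bases on the opposite strand, and ADAMTSL4 had 31 to 79 counts over the 3 libraries of a group. They also share 328 bases with ADAMTSL4-AS1, which is not a row of the table.

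BCL2 (ENSG00000171791, chr18:63123346-63320128, − strand) encodes the founding survival protein of the family. BCL2 moved in opposite directions in the lines. It was at 22.12, 21.54 and 22.05 CPM in EW8 at 0 h and at 18.7, 18.6 and 17.4 at 48 h. In TC71 it was at 10.3, 9.56 and 10.6 CPM at 0 h and at 11.79, 13.99 and 12.90 at 48 h. None of the 4 groups overlapped, and the gap between the lines was narrower at 48 h. The log2 fold change was -0.27 (SE 0.07, adjusted p = 0.00165) in EW8 and 0.34 (SE 0.08, adjusted p = 0.000894) in TC71. The EW8 fall kept its direction but not its call when libraries were scaled by their totals alone (-0.14, adjusted p = 0.0794), a scaling that moved the median of all genes from 0.03 to 0.16.

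BCL2L1 (ENSG00000171552, chr20:31664452-31723989, − strand) encodes BCL-XL and, by alternative splicing, the shorter pro-apoptotic BCL-XS, and counts per gene do not separate the isoforms. It was at 77.5, 81.4 and 77.1 CPM in EW8 at 0 h and 87.1, 88.9 and 83.8 at 48 h. In TC71 it was at 41.7, 42.3 and 39.3 CPM at 0 h and 49.6, 44.9 and 54.6 at 48 h. Both lines were slightly higher at 48 h without overlap. The log2 fold change was 0.14 (SE 0.06, adjusted p = 0.0225) in EW8 and 0.28 (SE 0.06, adjusted p = 0.000218) in TC71. The EW8 call was lost in 7 of 21 alternatives, among them DESeq2 (adjusted p = 0.0654) and upper-quartile scaling (adjusted p = 0.0957). It was also lost without EW8 0 h replicate 1 (0.10, adjusted p = 0.184), replicate 2 (0.13, adjusted p = 0.0521) or replicate 3 (0.09, adjusted p = 0.205), or EW8 48 h replicate 2 (0.12, adjusted p = 0.087). The noncoding gene ABALON shares 1735 exon bases with BCL2L1 on the opposite strand and is not a row of the table.

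BAX (ENSG00000087088, chr19:48954815-48961798, + strand) encodes the effector that moves from the cytosol to mitochondria. BAX fell in EW8, from 51.0, 56.9 and 53.6 CPM at 0 h to 40.5, 38.5 and 39.7 at 48 h. In TC71 it was at 53.6, 56.4 and 54.3 CPM at 0 h and 55.0, 51.7 and 51.3 at 48 h, so those groups overlapped. The 3 groups other than EW8 at 48 h thus lay in the same range. BAX was 1.36-fold lower in EW8 (log2, -0.44; SE 0.06; adjusted p = 9.13e-09), and this held in all 21 alternatives. In TC71 the log2 fold change was -0.06 (95% interval, -0.16 to 0.05; adjusted p = 0.4).

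BAK1 (ENSG00000030110, chr6:33572547-33580293, − strand) encodes the effector that resides in the mitochondrial outer membrane. BAK1 was at 46.78, 51.96 and 50.02 CPM in EW8 at 0 h and 54.1, 54.1 and 55.8 at 48 h, just without overlap. In TC71 it was at 40.8, 37.6 and 36.3 CPM at 0 h and 38.0, 36.9 and 40.8 at 48 h, with full overlap. The log2 fold change was 0.14 (SE 0.06, adjusted p = 0.024) in EW8 and 0.01 (95% interval, -0.10 to 0.13; adjusted p = 0.872) in TC71. The EW8 call was lost in 7 of 21 alternatives, including DESeq2 (adjusted p = 0.0663), EW8 fitted alone (adjusted p = 0.0562) and upper-quartile scaling (adjusted p = 0.0953). It was lost as well without EW8 0 h replicate 1 (0.07, adjusted p = 0.344) or replicate 3 (0.12, adjusted p = 0.112) or EW8 48 h replicate 3 (0.13, adjusted p = 0.0836). Its exons overlap the pseudogene GGNBP1 by 91 bases on the opposite strand, which is not a row of the table.

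**Figure D2:**
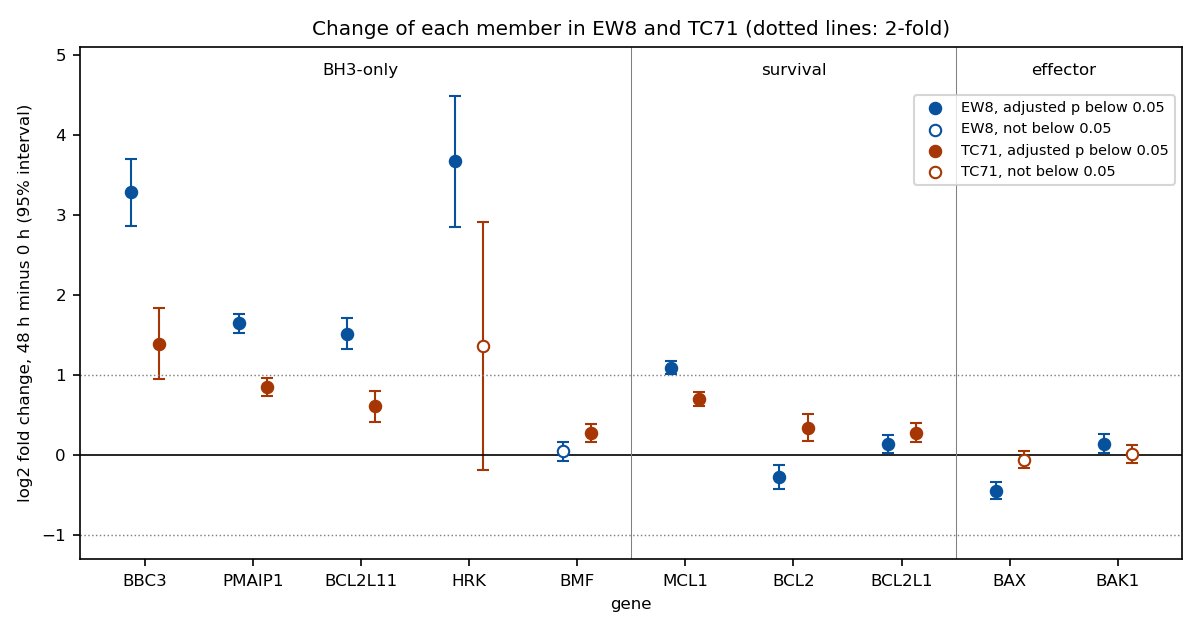
log2 fold change from 0 h to 48 h (vertical axis) of each member by role, in EW8 (blue) and TC71 (orange), with 95% intervals of the edgeR fit and dotted lines at a 2-fold change. Filled points had an adjusted p below 0.05, and BBC3 alone among the filled TC71 points lies above the upper dotted line.

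To compare the classes, levels were divided by exon length (CPM per kilobase of merged exons) and summed within each library. The BH3-only sum rose from 20.3 ± 0.692 to 48.3 ± 1.14 (SD, n = 3) in EW8 and from 24.3 ± 0.164 to 39.9 ± 2.06 in TC71. The survival sum rose from 58.6 ± 1.40 to 103 ± 1.60 in EW8 and from 51.6 ± 1.25 to 79.4 ± 4.09 in TC71. Neither pair of groups overlapped in either line, so both sums increased. The EW8 survival sum followed MCL1, which went from 38.1 to 81.4 CPM per kilobase. BCL2L1 went from 18.7 to 20.6 there and BCL2 from 1.74 to 1.44. In TC71 all 3 survival genes rose. The effector sum went from 43.22 ± 2.33 to 40.01 ± 0.631 in EW8, without overlap, and from 38.4 ± 0.932 to 37.8 ± 0.980 in TC71, with overlap. The ratio of the BH3-only to the survival sum was 0.333 to 0.364 in EW8 at 0 h and 0.463 to 0.471 at 48 h, 1.35-fold higher without overlap. In TC71 the ratio was 0.461 to 0.486 at 0 h and 0.465 to 0.531 at 48 h, and the groups overlapped. The ratios of TC71 at 0 h and EW8 at 48 h overlapped. With the length of the canonical transcript in place of merged exons, the mean ratios were 0.253 and 0.347 in EW8 and 0.345 and 0.370 in TC71. These sums describe RNA and say nothing of the amounts of protein.

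**Figure D3:**
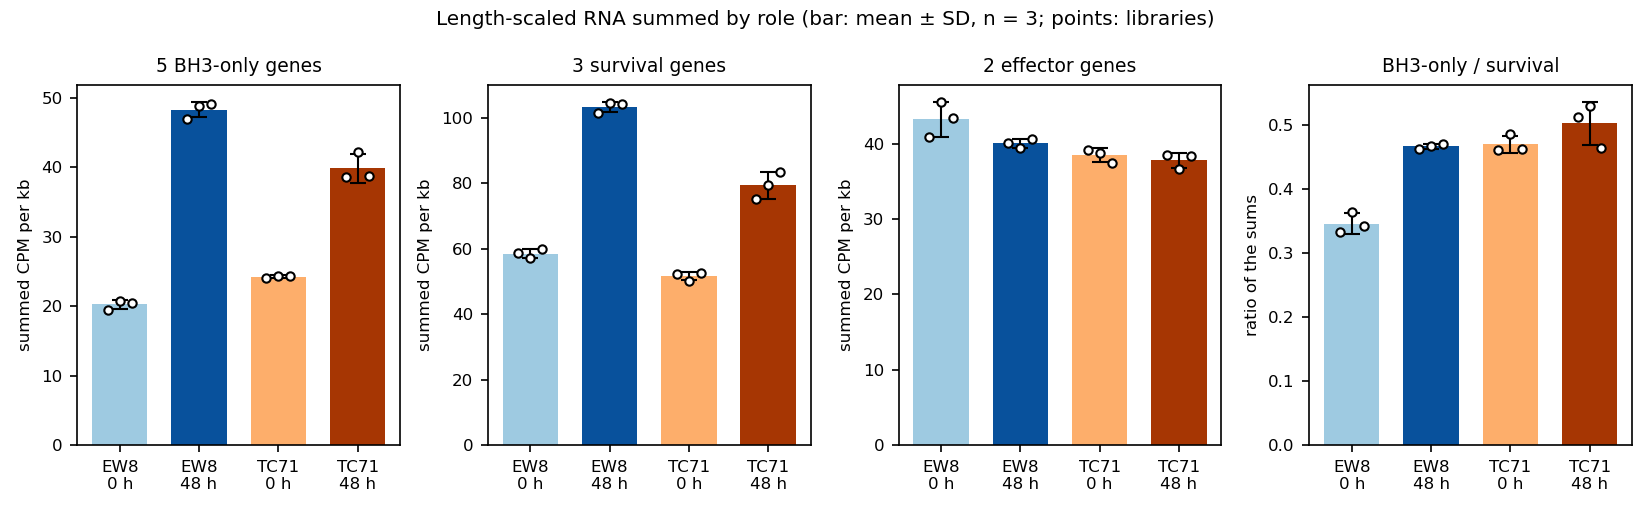
Length-scaled levels summed over the BH3-only, survival and effector genes, and the ratio of the first sum to the second, in each group (bars, mean ± SD of 3 libraries; points, libraries; all axes start at 0). The BH3-only and survival bars are taller at 48 h in both lines, the effector bars are not, and the ratio is lowest in EW8 at 0 h.

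Per length of merged exon, a single gene made up most of the RNA within the BH3-only and survival classes. In CPM, BMF exceeded PMAIP1 in EW8 at 0 h (42.5 against 25.1), and PMAIP1 had the higher mean in the other groups. MCL1 was 65.0% of the survival sum in EW8 at 0 h and 78.7% at 48 h, and 79.5% and 83.8% in TC71. PMAIP1 was 56.7% of the BH3-only sum in EW8 at 0 h and 74.6% at 48 h, and 69.1% and 75.6% in TC71, while BMF went from 38.5% to 16.7% in EW8 and from 26.1% to 19.2% in TC71. BBC3, upregulated in both lines, stayed below 2 CPM per kilobase of merged exon in the 4 group means. BAX exceeded BAK1 per length of merged exon in TC71 at both times (21.2 against 17.3 CPM per kilobase at 0 h), and BAK1 exceeded BAX in EW8 at both times (22.4 against 20.8 at 0 h and 24.7 against 15.3 at 48 h). The EW8 order turned around at both times with the canonical transcript length (22.9 for BAK1 against 67.7 for BAX at 0 h and 25.2 against 49.7 at 48 h), because the canonical BAX transcript of 795 bases is much shorter than its 2587 bases of merged exon.

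Ratios of counts between members within a library need no scaling between libraries, and 7 of them were chosen after the counts were seen to show how members moved against each other. The ratio of PMAIP1 to MCL1 counts, NOXA against its main partner, was 0.101, 0.111 and 0.106 in EW8 at 0 h and 0.153, 0.158 and 0.156 at 48 h. In TC71 it was 0.144, 0.146 and 0.142 at 0 h and 0.161, 0.169 and 0.148 at 48 h, also without overlap. This ratio was therefore higher in every 48 h library than in any 0 h library of the same line. The ratio of BCL2L11 to MCL1 counts was 0.0222 ± 0.00342 and 0.0292 ± 0.00107 in EW8, without overlap, and 0.0239 ± 0.00208 and 0.0225 ± 0.00216 in TC71, with overlap. Against BCL2, BCL2L11 moved much further in EW8, from a count ratio of 0.239 ± 0.0282 to 0.814 ± 0.0712, and from 0.603 ± 0.0615 to 0.725 ± 0.0857 with overlap in TC71. Against BCL2L1, BCL2L11 went from 0.0663 ± 0.00473 to 0.171 ± 0.0132 in EW8 and from 0.148 ± 0.00367 to 0.188 ± 0.0214 in TC71, without overlap in either line. BCL2L11 thus separated the times against all 3 survival genes in EW8 and against BCL2L1 in TC71. The ratio of BBC3 to MCL1 counts was 0.00250 ± 0.00106 and 0.0112 ± 0.000922 in EW8 and 0.002996 ± 0.000692 and 0.00501 ± 0.000599 in TC71, without overlap in either line. The ratio of BCL2 to MCL1 counts was lower at 48 h in both lines, from 0.0925 ± 0.00354 to 0.0360 ± 0.00208 in EW8 and from 0.0397 ± 0.000587 to 0.0311 ± 0.00178 in TC71, again without overlap. The ratio of BAX to BAK1 counts was 1.07 to 1.10 in EW8 at 0 h and 0.710 to 0.748 at 48 h, and it overlapped between times in TC71 (1.314 to 1.501 and 1.258 to 1.447).

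**Figure D4:**
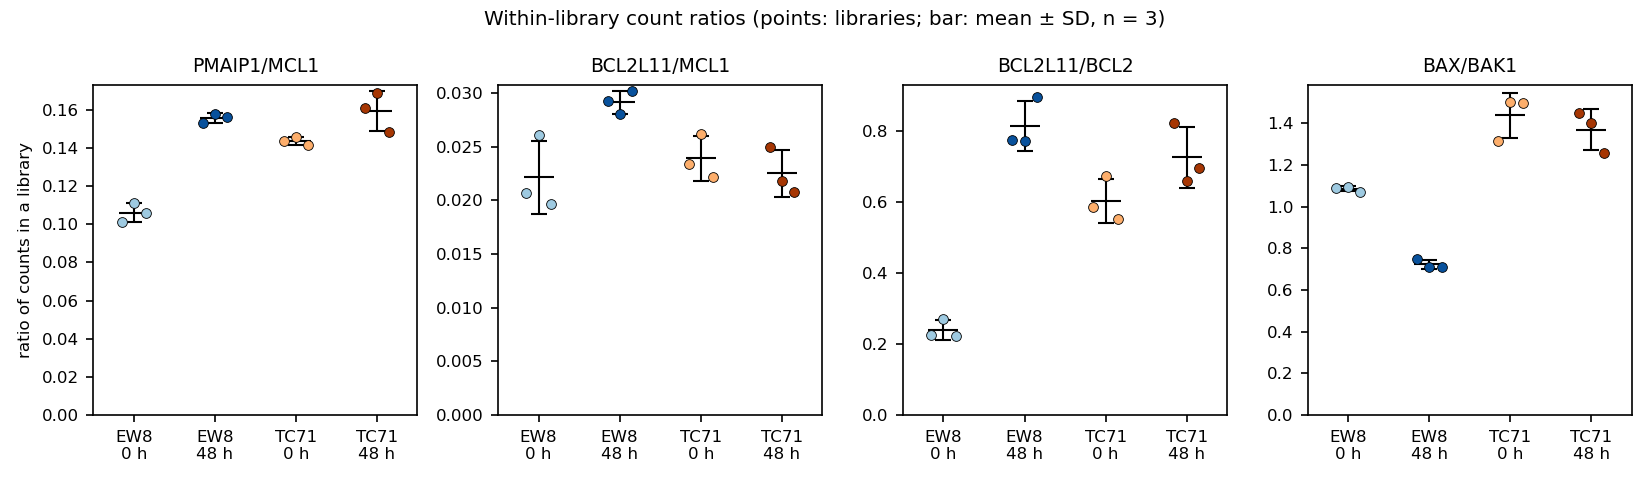
Ratio of the counts of 2 members in the same library (vertical axes, unitless, starting at 0) for PMAIP1 to MCL1, BCL2L11 to MCL1, BCL2L11 to BCL2 and BAX to BAK1, with points for libraries and bars for the mean ± SD of 3. In EW8 the first 3 ratios are higher and the fourth lower at 48 h without overlap, and in TC71 the PMAIP1 to MCL1 ratio is the one of these 4 that separates the times.

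The response differed between the lines for 7 of the 10 members by the interaction test, which compares the EW8 change with the TC71 change, against 48.1% of all genes at an adjusted p below 0.05. With a fold above 2 as well, 1 member (BBC3) differed, against 8.26% of all genes. Whether the members differ from other genes in this was not tested. BBC3 rose by 1.89 more on the log2 scale in EW8 (SE 0.34, adjusted p = 1.7e-05), BCL2L11 by 0.91 (SE 0.14, adjusted p = 1.62e-06), PMAIP1 by 0.80 (SE 0.08, adjusted p = 4.06e-10) and MCL1 by 0.40 (SE 0.06, adjusted p = 1.15e-06). The difference was in the other direction for BCL2 (-0.61, SE 0.11, adjusted p = 1.93e-05), BAX (-0.39, SE 0.07, adjusted p = 5.99e-05) and BMF (-0.23, SE 0.08, adjusted p = 0.0224). HRK, which passed the filter only through its EW8 48 h counts, did not pass this test (2.31; 95% interval, 0.04 to 4.58; adjusted p = 0.0879), and its value was 1.63 without EW8 0 h replicate 3 (adjusted p = 0.223). BCL2L1 (-0.14; 95% interval, -0.30 to 0.03) and BAK1 (0.13; -0.03 to 0.29) did not pass the test. The BMF call was lost when libraries were scaled by their totals alone (adjusted p = 0.133) and without EW8 48 h replicate 3 (-0.21, adjusted p = 0.0645), TC71 0 h replicate 1 (-0.19, adjusted p = 0.0886) or TC71 0 h replicate 3 (-0.21, adjusted p = 0.0511). BCL2L1 passed without TC71 48 h replicate 2 (-0.21, adjusted p = 0.0244), and BAK1 passed with library totals alone (0.20, adjusted p = 0.0343).

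At 0 h, with doxycycline, EW8 had higher BCL2, BCL2L1, BAK1 and BMF mRNA, and TC71 had higher PMAIP1 and, by a small margin, MCL1. By adjusted p alone, 6 of the 10 members differed between the lines, against 65.7% of all genes, and BCL2 alone also passed a fold above 2, against 16.7%. BCL2 was 2.16-fold higher in EW8 (log2, 1.11; SE 0.08; adjusted p = 1.5e-14) and was below a 2-fold difference with library totals alone (log2, 0.97), and BCL2L1 was 1.91-fold higher (adjusted p = 3.57e-16). BAK1 and BMF were 1.29-fold (adjusted p = 7.11e-07) and 1.23-fold (adjusted p = 3.55e-05) higher in EW8. PMAIP1 was 1.46-fold lower in EW8 (log2, -0.54; SE 0.06; adjusted p = 1.2e-09). MCL1 was slightly lower in EW8 (-0.11, adjusted p = 0.0285), a call lost with DESeq2 (adjusted p = 0.0857) and without EW8 0 h replicate 1 (-0.10, adjusted p = 0.0681) or 2 (-0.06, adjusted p = 0.198) or TC71 0 h replicate 1 (-0.10, adjusted p = 0.088) or 3 (-0.08, adjusted p = 0.137). BBC3 (-0.44, adjusted p = 0.193), HRK (1.08, adjusted p = 0.255; 0.49 and 1.74 without EW8 0 h replicate 1 or 3), BCL2L11 (-0.24, adjusted p = 0.0547) and BAX (-0.03, adjusted p = 0.676) did not pass. BCL2L11 passed with library totals alone (-0.37, adjusted p = 0.0035), upper-quartile scaling (-0.32, adjusted p = 0.0115) and at least 10 counts in every library (-0.26, adjusted p = 0.0324), and without EW8 0 h replicate 2 (-0.30, adjusted p = 0.0256) or TC71 48 h replicate 2 (-0.25, adjusted p = 0.0472). BAX passed with library totals alone (-0.16, adjusted p = 0.00808). These baseline values use the same 0 h libraries as the responses above.

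Ordered by group mean, BBC3, PMAIP1, BCL2L11 and MCL1 shared the order EW8 48 h, TC71 48 h, TC71 0 h and EW8 0 h. Neighbours in this order did not overlap, except TC71 0 h and EW8 0 h for BBC3, BCL2L11 and MCL1. BCL2L1 and BAK1 were instead ordered by line, with both EW8 groups above both TC71 groups, and so were BCL2 and BMF, although BMF in EW8 at 0 h overlapped TC71 at 48 h. The highest group was EW8 at 48 h for BCL2L1, BAK1 and BMF and EW8 at 0 h for BCL2. BAX had its lowest level in EW8 at 48 h, and its other 3 groups overlapped. HRK was highest in EW8 at 48 h, and its TC71 48 h libraries overlapped those of EW8 at 0 h.

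Genes that act beside the members were read from 4 lists written from general knowledge, and their counts are set against the shares of all genes. These were 37.0% that rose and 31.6% that fell in EW8, and 22.9% and 19.2% in TC71. Upregulated were 13.9% in EW8 and 3.26% in TC71, and downregulated were 3.35% and 0.854%. Of 13 further BCL2 family genes, 11 were in the table and 10 were tested, of which 4 rose and 1 fell in EW8 (median log2 fold change, 0.34) and 2 rose and 1 fell in TC71 (0.07). BOK, an effector-like family member and the most highly counted of this list, was the one upregulated in EW8, from 546 to 978 counts at 0 h to 1260 to 1450 at 48 h (1.18, SE 0.08, adjusted p = 8.72e-11). In TC71, BOK started at 3655 to 4520 counts and had 4082 to 5684 at 48 h (0.03, adjusted p = 0.745), and the responses differed (1.15, adjusted p = 2.36e-08). BOK thus rose in EW8, where BAX fell. Of 18 apoptosome, caspase and IAP genes tested, 6 rose and 9 fell in EW8 (median, -0.11) and 7 rose and 5 fell in TC71 (0.06). DFFB, the nuclease that fragments DNA downstream of the caspases, was downregulated in EW8 (-1.05, adjusted p = 1.91e-14) and fell by 0.29 on the log2 scale in TC71 (adjusted p = 0.000516). CYCS, which encodes cytochrome c and had the most counts of that list, had log2 fold changes of -0.51 and -0.24.

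Of 13 genes for partners of the family and for MCL1 turnover, 5 rose and 6 fell in EW8 (median, -0.08) and 1 rose and 4 fell in TC71 (-0.06). BAG3, a co-chaperone that stabilizes survival proteins, was the one upregulated (1.04, adjusted p = 1.52e-15), with a change of 0.38 in TC71 (adjusted p = 4.44e-06). HUWE1, an E3 ligase of MCL1 and the most highly counted of the list, had log2 fold changes of 0.16 (adjusted p = 0.00172) and 0.00 (adjusted p = 0.966). Of 14 transcription factors known to regulate BH3-only genes, 12 rose and 2 fell in EW8 (median, 1.44). There, 9 were upregulated, against 13.9% of all genes. In TC71, 9 rose and 1 fell (median, 0.70), and 6 were upregulated, against 3.26% of all genes. The log2 fold changes in EW8 and TC71 were 6.55 and 4.44 for JUN, 6.29 and 5.77 for FOS, 5.49 and 4.03 for EGR1, 5.18 and 2.72 for DDIT3 (CHOP) and 4.89 and 3.37 for ATF3. For TP73, TP63 and FOXO3 they were 2.63 and 1.72, 1.69 and 0.92, and 1.19 and 0.41. MYC, the most highly counted of the list, had log2 fold changes of 0.95 (adjusted p = 6.31e-21) and -0.05 (adjusted p = 0.356). These lists hold genes that other results of these data had already singled out, so their counts are a description.

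The genes whose pattern over the 12 libraries was nearest to each BH3-only gene were found by the root mean square difference of gene-centred log2 CPM among 10922 genes with a mean of at least 100 counts. They were IFIT3, GADD45B and SERTAD1 for BBC3 (0.27 to 0.31), FBXO8, EGR2 and BMP2 for PMAIP1 (0.05 to 0.12), and ERN1, DNAL4 and PROKR1 for BCL2L11 (0.09 to 0.10). For BMF they were DEPDC5, DPP9 and CHAF1A (0.06). For HRK, whose counts were few, the nearest were C6orf141, RGS2 and DACT2 at a much larger distance (0.40 to 0.46). The likeness is computed on all 12 libraries, so it mixes the difference between the lines with that between the times.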

How the data were processed

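Whole-number counts per gene were deposited by the authors as 1 table with a column for each of the 12 libraries (polyA RNA, TruSeq Stranded mRNA, paired-end 100 bp reads). Per the labels and the methods, reads were checked with FastQC and mapped to hg38 with STAR. The counting tool, its strand setting and its annotation are not given in the sources used here. The least abundant gene had 21 counts over all libraries, so rare genes had been removed. Of 20771 genes, 19943 matched GENCODE release 44, from which positions, overlaps and lengths were taken.

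The table was analysed in R 4.3.3 with edgeR 4.0.16. A filter on low counts (filterByExpr with the 4 groups, a minimum of 10 counts and of 15 in total) preceded TMM scaling and a robust quasi-likelihood fit of all 12 libraries without a replicate block. Comparisons were of 48 h with 0 h within each line, the difference of these responses, and EW8 minus TC71 at 0 h. Adjustment (Benjamini-Hochberg) was over all 16515 genes tested. SE is that of the log2 fold change, from the F statistic. "Rose" and "fell" mean an adjusted p below 0.05, and upregulated and downregulated add a fold above 2, the thresholds of the study. CPM are per 1000000 counts of library size after TMM scaling. Alternatives were other scalings, filters and thresholds, DESeq2 1.42.0, each line alone, the replicate number as a block, and each library left out. The canonical transcript length was added after the data were seen. The procedure was tested on simulated data. Figures used matplotlib 3.10.9.

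The members and lists were chosen with earlier results of these data known. Genes named were the members, RRM1, up to 8 upregulated or downregulated genes of each list by size of change, the gene of each list with the most counts, and the 3 genes nearest to each BH3-only member. A few genes under this rule enter the counts of their lists and are otherwise not reported here. Genes whose exons overlap a member, markers not listed and the count ratios were added after values were seen. Protein sequences, immunoblots and drug treatments were not analysed here.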

Additional observations from a re-analysis of the deposited data

Results flagged for a closer look

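The response to removal of doxycycline differed between the lines for 7 of the 10 members, by the interaction test of edgeR at an adjusted p below 0.05, against 48.1% of all genes. The EW8 change exceeded the TC71 change by 1.89 on the log2 scale for BBC3, 0.91 for BCL2L11, 0.80 for PMAIP1 and 0.40 for MCL1. It was below the TC71 change for BMF (-0.23), BAX (-0.39) and BCL2 (-0.61). BCL2 is the member with called changes of opposite direction, a fall in EW8 and a rise in TC71.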

How the results depend on the processing

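The number of members upregulated in EW8 (5) and TC71 (1), downregulated (0 in each), past both thresholds in the interaction (1) and at 0 h (1) stayed the same in every fit that left out 1 library and with DESeq2. Requiring at least 10 counts in every library removed BBC3 and HRK from the test, which left 3 upregulated in EW8 (PMAIP1, BCL2L11 and MCL1), 0 in TC71 and 0 in the interaction. Without a fold threshold, 2 were lower in EW8 (BCL2 and BAX; 31.6% of all genes), 7 were higher in TC71 (22.9%), 7 differed in the interaction (48.1%) and 6 at 0 h (65.7%). Scaling by library totals alone left 0 past both thresholds at 0 h (BCL2, 0.97), and moved the median of all genes to 0.16 in EW8, 0.05 in TC71, 0.12 in the interaction and -0.14 at 0 h. Values near 0 changed sign. BMF in EW8 was -0.007 without EW8 0 h replicate 1 and -0.004 without replicate 3 (-0.007 to 0.067 over all libraries left out). BAK1 in TC71 was -0.014 with upper-quartile scaling, -0.002 and -0.001 without EW8 0 h replicate 1 or 3, -0.003 and -0.02 without TC71 0 h replicate 2 or 3, and -0.03 without TC71 48 h replicate 3 (-0.03 to 0.066). BAX at 0 h was 0.02 without EW8 0 h replicate 1 (-0.055 to 0.02). Of the other comparisons of a single member's value with an alternative, 769 kept direction and call, 24 lost the call and 9 gained it, and the cause was not tested.

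No pairing of the libraries by replicate number was seen. Deviations of the same number correlated at -0.168 to -0.004 within a line, and 0 of 12 libraries correlated best with their own number. This cannot show whether libraries of the same number were prepared together. With the replicate number as a block, the counts of members past both thresholds were the same, and the rises in EW8 of BCL2L1 (0.14, adjusted p = 0.0552) and BAK1 (0.14, adjusted p = 0.0542) were no longer called. Over all genes, the block gave 2277 upregulated genes in EW8 (2294 without it) and 507 in TC71 (539), and 556 (554) and 124 (141) downregulated. At least 10 counts in every library gave 1204 and 306 in EW8 and 197 and 36 in TC71, and totals alone gave 2661 and 345, and 603 and 109. Depth limits HRK, which had 1 to 6 counts in 9 of the 12 libraries, and BBC3 at 0 h.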
